A study of Homo sapiens with 11 samples.

Results

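ZFP36L2 sites that lay deep in introns and were found in the acute myeloid leukaemia line MOLM13 but not in the line THP1 numbered 468, out of 8627 distal intron peaks in the table of the first MOLM13 immunoprecipitate. A site was a distal intron peak of MOLM13 replicate 1 over input that overlapped, by 1 base or more on its own strand, a peak of MOLM13 replicate 2 and no peak of either THP1 replicate. Members were thus chosen by their enrichment over input in all 4 immunoprecipitates. The 468 peaks made 436 separate regions once touching peaks were merged, and they carried 317 gene names. All values are those of the authors' deposited tables, and a peak is in an input table only if both its log2 fold and its −log10 p reached 3.

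The data come from enhanced crosslinking and immunoprecipitation (eCLIP), in which ultraviolet light (254 nm, 400 mJ/cm2) joins proteins to RNA, the protein is pulled down and the bound RNA fragments are sequenced. MOLM13 and THP1 are established human lines grown in the same medium without treatment. Each line gave 2 immunoprecipitates of ZFP36L2 and 2 of control IgG, and size-matched input (2% of the lysate, 30 to 105 kDa) was sequenced 2 times for MOLM13 and 1 time for THP1. The sources used here do not say whether both THP1 tables rest on that 1 input, in which case the absence of a site from them shares a control. The labels do not say that duplicates came from separate cultures, so their spread may be technical. As a check of the lines, clusters were counted in marker genes, which shows RNA in the immunoprecipitate and not expression. The myeloid gene CD33 had 19 and 23 clusters in MOLM13 and 8 and 14 in THP1, the integrin gene ITGAM had none in MOLM13 and 8 and 7 in THP1, and CSF1R had 0 to 2 in any list. FLT3 had 67 and 65 in MOLM13, against 30 and 31 in THP1, and MLLT3 26 and 41, against 17 and 12. Both of these genes also hold sites. In KMT2A the lines overlapped, with 27 and 42, against 37 and 40.

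ZFP36L2 belongs to the TIS11 family of zinc finger proteins, which bind AU-rich elements, classically in 3' UTRs, and recruit deadenylases that shorten the life of the mRNA. Introns are removed from the transcript in the nucleus, so a crosslink inside an intron marks unspliced or excised RNA. Such RNA is present only where the gene is transcribed. Distal intron is the region name in the deposited tables, and the sources used here do not give its distance cutoff.

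The sites were set against the annotation, which places them in genes but was not used to check that they are intronic. Of the 317 names, 307 matched a RefSeq gene, and 448 of the 468 sites lay inside the gene they were named for. The replicate 2 peak carried the distal intron name too at 460 sites, and another name at the rest, 3' UTR at 2 sites (CLCF1 and SLC43A3), noncoding exon at 2 and distal intron of a noncoding RNA at 4. The centres of the CLCF1 and SLC43A3 sites lay 64.5 and 75 bases from the gene end; these 2 genes were named after their values were seen. Sites were 2 to 172 bases wide, with a median of 67. They lay a median of 38.9% along the gene from its start, against 37.9% for the distal intron sites found in all 4 input tables.

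Most MOLM13 distal intron peaks were shared with THP1. Of 8627, 6942 were found in both MOLM13 replicates, and 6029 of these (69.9% of all) were also in both THP1 tables. A further 255 were in THP1 replicate 1 alone and 190 in replicate 2 alone, so 445 sites missed the rule by 1 THP1 table, nearly as many as the 468 that met it. THP1 had 2508 such sites of its own, out of 12560. The share of listed clusters that passed over input was 10.3% and 7.9% in the MOLM13 libraries and 12.6% and 13.1% in THP1.

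At the edge of the rule the values were close. The lowest fold, 3.004 in replicate 2, was shared by several sites, among them those of NCAM2, HOOK3 and NDUFS4, with 4.64, 3.08 and 4.01 in replicate 1. A site in ZNF521 touched a THP1 peak without sharing a base. On the other side, a site in FAM107B was left out for 1 base shared with a THP1 peak, and one in H2AFV for a THP1 log2 fold of 3.02. These genes were chosen for their place at the threshold after their values were seen. A THP1 input peak lay within 100 bases of 67 sites and within 10000 bases of 225.

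Fold over input chose the sites and is given as a description. The median log2 fold was 4.11 in replicate 1 and 3.93 in replicate 2, against 5.08 and 4.93 at the sites found in all 4 tables. The median −log10 p was 6.04 and 5.39, against 13.7 and 13.4. The 468 sites took only 129 different fold values in replicate 1 and 132 in replicate 2, so many sites tied. Subtracting the fold over IgG from the fold over input leaves the log2 ratio of IgG to input at the site, and this ratio took 33 different values over 466 sites in replicate 1, with 35.0% of the sites at a single value. In replicate 2, 45.5% of the sites shared 1 value. At the sites found in all 4 tables these shares were 18.1% and 16.7%. The sources used here do not give the depth per library, and why values tied was not tested.

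**Figure D1:**
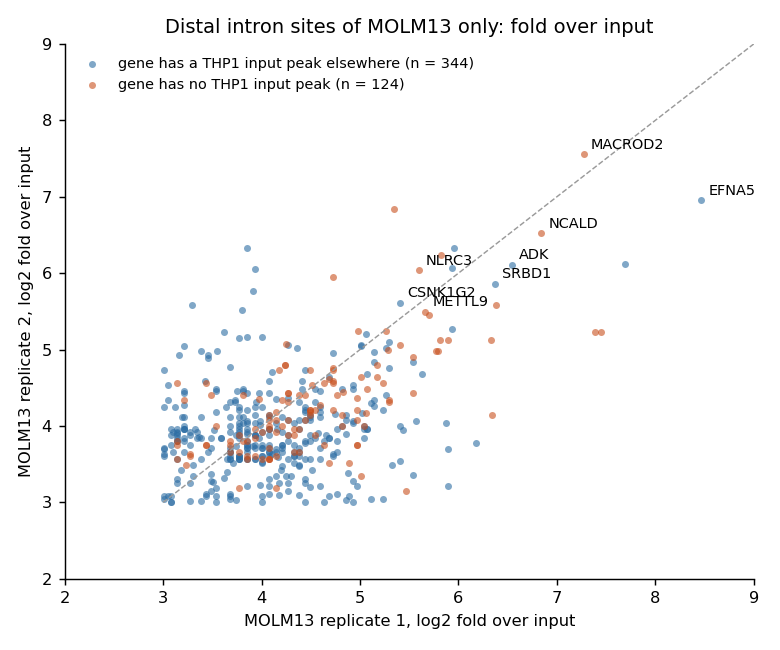
Log2 fold over input of the 468 sites in MOLM13 replicate 1 (x axis) and replicate 2 (y axis), 1 point per site, with the line of equal values dashed. The cloud lies between 3 and 5 in both replicates, and the leading sites of MACROD2, EFNA5 and NCALD stand apart from it.

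The strongest sites lay in EFNA5, MACROD2 and NCALD. EFNA5 encodes ephrin-A5, a membrane-anchored ligand of Eph receptors. Its best site (hg38, chr5:107542948-107542999, minus strand, intron) had a log2 fold over input of 8.47 in MOLM13 replicate 1 and 6.96 in replicate 2. Over IgG it had 5.16 and 5.02, with −log10 p of 37.2 and 33.8. The overlapping THP1 clusters had −1.32 and 2.28 over IgG, so both MOLM13 values were above both THP1 values, which lay far apart.

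MACROD2, an enzyme that removes ADP-ribose from proteins, had its best site at chr20:14046741-14046819 on the plus strand. Its log2 folds were 7.27 and 7.56 over input, then 5.29 and 4.62 over IgG. THP1 clusters at the site had 1.07 and 2.08 over IgG. NCALD, which encodes the calcium sensor neurocalcin delta, followed with 6.84 and 6.52 over input, and against IgG it had 4.86 and 3.58 (chr8:101707812-101707891, minus strand). THP1 replicate 1 listed a cluster there at −0.32 over IgG and replicate 2 listed none.

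Next by the lower replicate came the adenosine kinase gene ADK, with log2 folds over input of 6.54 and 6.11 (chr10:74335083-74335141, plus strand). Over IgG it reached 3.56 in replicate 1 and 1.95 in replicate 2, so it was not enriched over IgG in both. SRBD1 had 6.37 and 5.86 over input and passed the IgG control in both replicates, with 3.06 and 4.51. NLRC3, an NLR family gene that restrains innate immune signalling, had 5.60 and 6.04 over input (chr16:3555873-3555937, minus strand). Its folds over IgG, 6.20 and 4.69, put it first in replicate 1, and neither THP1 list held a cluster at the site.

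The rest of the leading 10 genes were the casein kinase gene CSNK1G2, the histidine methyltransferase gene METTL9, the decay helicase gene DHX34 and the kinesin adaptor gene FEZ1. Their lower-replicate folds over input ran from 5.25 for FEZ1 to 5.50 for METTL9, with CSNK1G2 at 5.41 and DHX34 at 5.26. Among these, DHX34 passed the IgG control in both replicates (3.36 and 3.91). METTL9 (3.68 and 2.56) and FEZ1 (3.28 and 2.89) missed it in replicate 2. CSNK1G2 missed it in both, with 2.10 and 1.67.

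The IgG control was not part of the rule, but it was set against the same immunoprecipitates. A cluster is called enriched over IgG where its log2 fold and its −log10 p both reach 3. In MOLM13 replicate 1, 129 of 466 sites with a listed value were enriched over IgG (27.7%, Wilson 95% interval 23.8 to 31.9), where 5.11% of all clusters were. In replicate 2, 63 of 464 were (13.6%, 10.8 to 17.0), where 2.49% of all clusters were. Both replicates passed at 40 of 464 sites in 27 genes (8.62%, 6.39 to 11.5), against 2.41% of all clusters of replicate 1. The denominators differ, since those clusters include ones without a replicate 2 cluster. Every site, by the rule, had a replicate 2 peak and passed over input in both. At 313 of 464 sites (67.5%) neither replicate was enriched over IgG. These intervals cover counting error only.

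Sites found in all 4 tables passed the IgG control in both MOLM13 replicates more often, at 1219 of 6025 (20.2%, 19.2 to 21.3). They passed in neither replicate at 2597 of 6025 (43.1%), against 67.5% for the sites of MOLM13 only. Both sets of sites were measured in the same 2 immunoprecipitates and sites are not replicates, so these differences were not tested. The medians are given here for each replicate in turn. Over IgG the sites had a median log2 fold of 2.79 and 2.43 in MOLM13, against 3.16 and 2.42 at the shared sites, and all clusters had 0.28 and −0.60. The median −log10 p was 2.66 and 1.54, against 5.67 and 3.23.

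**Figure D2:**
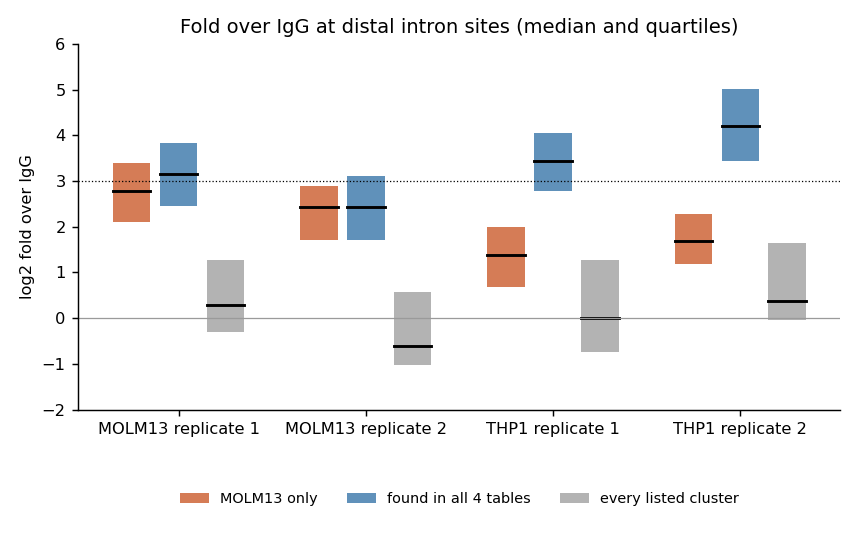
Log2 fold over IgG (y axis) in each of the 4 immunoprecipitates for the sites of MOLM13 only, the distal intron sites found in all 4 input tables and every listed cluster. Boxes span the quartiles, black lines are medians and the dotted line is the threshold of 3; in THP1 the MOLM13-only sites have medians of 1.38 and 1.70, between all clusters and the shared sites.

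High folds over IgG in both replicates were not limited to the sites that led over input. After NLRC3, EFNA5, MACROD2 and NCALD, these were GAB2, ICAM2, IFNLR1 and RFTN1. ICAM2, an adhesion ligand of leukocyte integrins, had 4.08 and 3.88 over IgG, with 7.38 and 5.23 over input (chr17:64019348-64019392, minus strand). IFNLR1, a chain of the type III interferon receptor, had 4.36 and 3.79 over IgG (chr1:24171177-24171296, minus strand), with no cluster in either THP1 list. RFTN1, which encodes a lipid raft protein, had 4.43 and 3.70 at its best site and passed the control at both of its sites.

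Some sites failed the IgG control altogether. The lowest lay in PIAS4, a SUMO ligase gene, with −1.25 and −2.12 over IgG in MOLM13 although it had 3.44 and 3.76 over input (chr19:4020505-4020525, plus strand). THP1 clusters at that site were lower still, at −3.77 and −2.56. LETMD1 (1.02 and 1.16), MAPK8IP3, a scaffold gene of the JNK pathway (1.18 and 0.75), and 2 sites named jointly for a numbered transcript and MED26 or DDX19B completed the 5 lowest genes, ranked by the higher of both replicates. PIAS4 held the only 2 sites, touching each other, with a log2 fold over IgG below 0 in MOLM13.

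Absence from the THP1 input tables did not mean that THP1 had no clusters at these positions. Both THP1 IgG lists held an overlapping cluster at 310 of 468 sites (66.2%, 61.8 to 70.4), 1 list did at 55 and neither did at 103 (22.0%, 18.5 to 26.0). Where several clusters overlapped, the one with the highest fold was taken. The median log2 fold over IgG in THP1 was 1.38 over 344 sites in replicate 1 and 1.70 over 331 in replicate 2, while all THP1 clusters had medians of 0.0019 and 0.38. Of the 310 sites, 255 lay above the median of both lists, a count that the choice of the highest fold can raise. Of all 140287 clusters of MOLM13 replicate 1, 48668 had a cluster in every remaining IgG list. That condition is stricter, since it also asks for a cluster in MOLM13 replicate 2. Shares of all clusters under the conditions used for the sites are not given here. Whether the counts of 310, 103 and 255 are unusual was therefore not tested.

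Few of the THP1 clusters at the sites were enriched over IgG. In THP1 replicate 1, 2 of 344 sites were (0.581%), against 5.74% of all clusters. These 2 are the touching peaks of GAB2, which share 1 THP1 cluster. In replicate 2, 4 of 331 were (1.21%), against 8.36%. No site passed in both THP1 replicates (0 of 310, Wilson upper bound 1.22%). Of all clusters of THP1 replicate 1, with or without a replicate 2 cluster, 4.92% did. In these THP1 clusters the median −log10 p was 0.39 and 0.50. A THP1 cluster enriched over both controls could not enter the set, because passing over input would have removed the site.

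All 4 lists gave a fold over IgG at 306 sites. Both MOLM13 values were above both THP1 values at 179 of them (58.5%), against 15.3% of the 48668 MOLM13 replicate 1 clusters with a cluster in the other 3 lists. Both THP1 values were above both MOLM13 values at 16 (5.23%), against 31.3%. The medians of the lists differed, and the sources used here do not say how the lists were scaled. After subtraction of each list's median, the first count was 208 of 306, against 22.9% of all clusters. The immunoprecipitates that enter these folds also chose the sites, so the counts are a description.

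**Figure D3:**
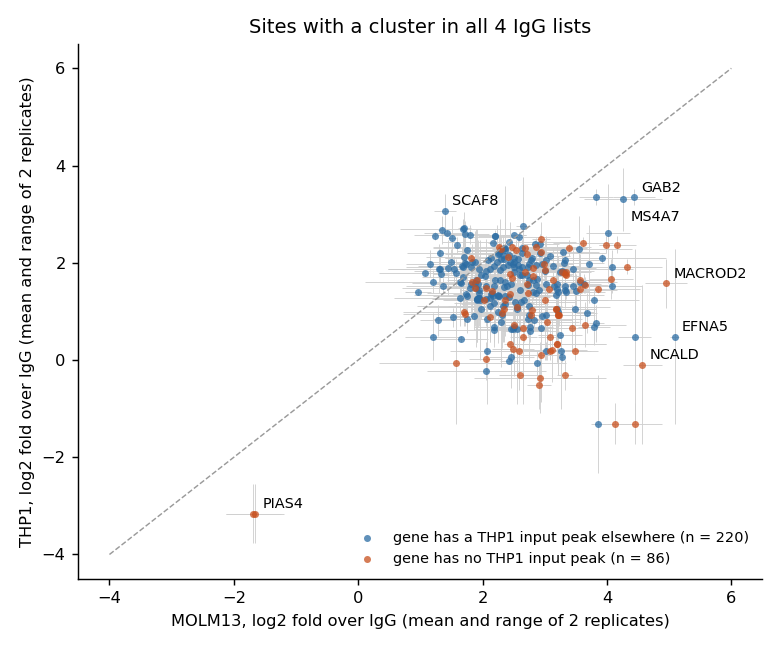
Mean log2 fold over IgG in MOLM13 (x axis) and THP1 (y axis) at the 306 sites with a cluster in all 4 IgG lists, with grey bars for the range of 2 replicates, a dashed line of equal values, and orange points for genes without a THP1 input peak. Most points lie below the line, EFNA5 and NCALD far below it, while SCAF8 lies above it and PIAS4 is below 0 in both lines.

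A few sites were enriched over IgG in 1 THP1 replicate and not in the other. GAB2 encodes a docking adaptor downstream of cytokine receptors, and its 2 touching peaks (chr11:78359593-78359743, minus strand) shared 1 THP1 cluster per list, with log2 folds over IgG of 3.51 and 3.18. Their −log10 p was 3.23 in THP1 replicate 1 and 2.35 in replicate 2, so replicate 2 missed the threshold. In MOLM13 the peaks had 3.56 and 4.76 over IgG in replicate 1 and 4.10 in replicate 2. MS4A7, a membrane protein gene expressed in monocytes and macrophages, had 2.66 and 3.95 over IgG in THP1, with −log10 p of 5.29 and 8.82, and 4.89 and 3.63 in MOLM13 (chr11:60394029-60394124, plus strand). MS4A7 was thus enriched in THP1 replicate 2 and missed the fold threshold in replicate 1. The ranges of the lines overlapped at MS4A7.

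SCAF8, SAR1B and NAA25 were among the 16 sites with the higher fold over IgG in THP1. SCAF8, a gene for a polymerase-binding protein, had 1.22 and 1.57 in MOLM13, against 2.72 and 3.42 for THP1. SAR1B, the GTPase that starts COPII coats, had 1.79 and 1.06, against 2.68 and 2.55. NAA25, a subunit gene of an N-terminal acetyltransferase, had 1.92 and 2.49, against 2.54 and 2.55. SNAPC3 (2.54), TIAM2 (2.55) and SLC43A3 (2.81) also ranked among the 8 genes with the highest lower-replicate THP1 fold. None of these 6 genes passed the −log10 p threshold in THP1.

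Sites were spread thinly over genes, with a few exceptions. Of the 317 names, 255 held 1 region, 41 held 2 and 21 held 3 or more. The 8 genes with the most regions, with ties broken by summed fold over input, were CSNK1G2, NCALD, WWOX, EFNA5, KCNQ5, KSR1, ANP32A and ITGAL. GOLPH3 tied with the last 4 of them at 5 regions and came after ITGAL. The 8 genes held 62 sites (13.2%) and 11 of the 40 enriched over IgG in both replicates. Sites of 1 gene come from 1 transcript and are not independent of each other.

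NCALD held 9 sites in 8 regions over 361412 bases, and 9 of its 10 distal intron peaks in MOLM13 replicate 1 were therefore sites of MOLM13 only. Log2 folds over IgG ran from 2.34 to 4.86 in replicate 1 (median 3.71) and from 1.72 to 4.89 in replicate 2 (median 3.58). In THP1, 7 sites had a cluster in replicate 1, with a median of −1.74, and 4 in replicate 2, with a median of −0.46. No NCALD site in THP1 rose above 1.55. The gene had no THP1 input peak at all.

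EFNA5 held 8 sites in 7 regions, out of 11 distal intron peaks, and 5 of them were enriched over IgG in both replicates. Folds over IgG ran from 1.56 to 5.16 in replicate 1 and from 1.72 to 5.02 in replicate 2. All 5 THP1 replicate 1 values were below 0, between −2.32 and −0.74, and the 3 values of replicate 2 were −0.30 and, from 1 shared cluster, 2.28. KCNQ5, a voltage-gated potassium channel gene, held 8 sites in 5 regions. All of them had clusters in both THP1 lists, with medians over IgG of 0.70 and 1.96, against 3.13 and 2.61 in MOLM13.

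CSNK1G2 differed from these genes. Its 12 sites were 12 separate regions within 30501 bases, among 37 distal intron peaks of which 5 were in all 4 tables and 12 in 1 THP1 table. None of the 12 was enriched over IgG in both MOLM13 replicates, with medians of 2.34 and 2.13. WWOX, an oxidoreductase gene spanning a fragile site, held 8 sites among 28 distal intron peaks, 11 of which were in all 4 tables. One WWOX site passed the IgG control in both replicates, with 3.22 and 3.70, and had no THP1 cluster.

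KSR1, a scaffold of the RAF to ERK cascade, held 7 sites, none enriched over IgG in both replicates, with medians of 2.22 and 1.83. ITGAL, the alpha subunit gene of the leukocyte integrin LFA-1, held 5, with medians of 2.09 and 1.65. In ANP32A the 5 sites lay within 1256 bases, beside 14 distal intron peaks found in all 4 tables. No ANP32A site had a THP1 cluster, and their folds against IgG reached at most 2.82 in replicate 1 and 1.85 in replicate 2. GOLPH3 likewise held 5 sites close together, within 1343 bases, and 4 of them had no THP1 cluster.

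**Figure D4:**
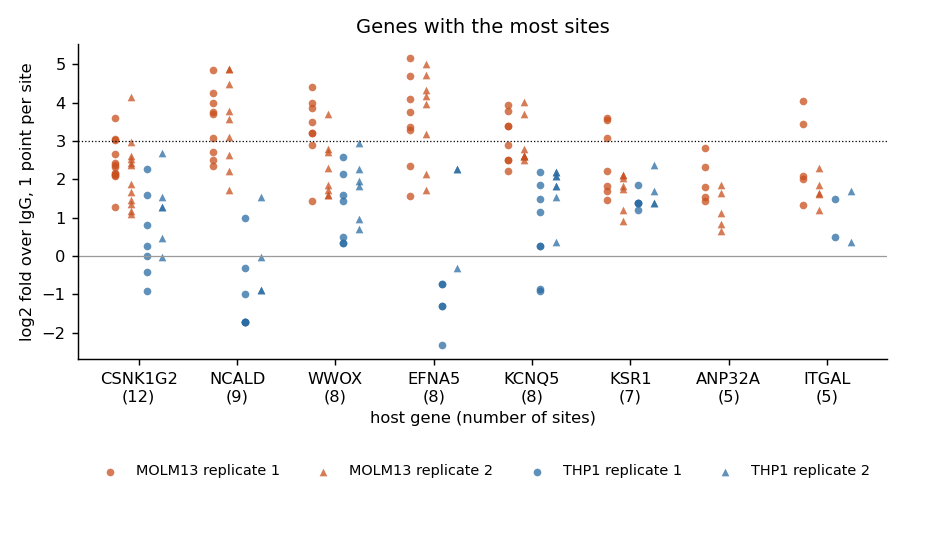
Log2 fold over IgG (y axis) at each site of the 8 genes with the most regions, by library, with the number of sites under each gene and the threshold of 3 dotted. NCALD and EFNA5 have MOLM13 values up to 4.89 and 5.16 and THP1 values mostly below 0; ANP32A has no THP1 cluster at its sites.

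Genes divided by whether THP1 had any input peak in them. For 344 sites in 228 names, at least 1 THP1 table held a peak elsewhere in the gene, and for 124 sites in 89 names neither did. The second set had lower-replicate folds over input with a median of 4.11, against 3.66 in the first. Enrichment over IgG in both MOLM13 replicates was found at 18 of 121 (14.9%, 9.62 to 22.3) and 22 of 343 (6.41%, 4.27 to 9.52). These intervals treat sites as independent and are too narrow. Of the 18 sites 4 lay in NCALD, and touching peaks such as the 2 in ICAM2 shared 1 replicate 2 value. Both THP1 lists held a cluster at 89 of 124 (71.8%) and 221 of 344 (64.2%). These differences were not tested.

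Clusters per gene do not use the sites' own folds, but they come from the same immunoprecipitates that chose the sites. They count every position where reads of an immunoprecipitate gathered, enriched or not, and can follow the amount of transcript as well as binding, which cannot be told apart here. Of 307 host genes with RefSeq coordinates, 206 (67.1%) had more clusters in both MOLM13 lists than in both THP1 lists. Of all 2805 genes with a distal intron peak in MOLM13 replicate 1, 32.7% did. Host genes had a median of 32.5 clusters in MOLM13 and 18.5 in THP1, averaged over replicates, where all 2805 had 22.0 and 20.0. Hosts were also longer, and counts were not adjusted for length. The median length was 112348 bases for hosts with a THP1 input peak and 100452 for those without, against 79852 for all 2805. Each host holds at least 1 MOLM13 cluster by the rule, at a position without a THP1 input peak. The counts for host genes are therefore a description.

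In the 84 host genes without a THP1 input peak the medians were 12.5 and 3.25, and 68 of them had more clusters in both MOLM13 lists. These genes had been chosen for a MOLM13 peak and for no THP1 input peak in the same immunoprecipitates. Fewer THP1 clusters were thus partly built in, and other genes without a THP1 input peak were not counted separately. THP1 listed no cluster anywhere in 7 of the 84, NLRC3 and IFNLR1 among them. NCALD had 248 and 291 clusters in MOLM13 and 6 and 3 in THP1. MACROD2, also without a THP1 input peak, had 36 and 41, against 8 and 5. EFNA5 and KCNQ5 are not among the 84, since THP1 had an input peak in each. EFNA5 had 118 and 104 clusters, against 7 and 4, and KCNQ5 399 and 480, against 91 and 54.

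Other hosts were alike in both lines. VAV1, a signalling gene of blood cells, had 58 and 66 clusters in MOLM13 and 64 and 52 in THP1. TBC1D5, a regulator of Rab7, had 152 and 188, against 159 and 149. The first of its 2 touching sites had 1.76 and 3.38 over IgG in MOLM13, while THP1 had 1.41 and 2.51, so the lines overlapped.

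**Figure D5:**
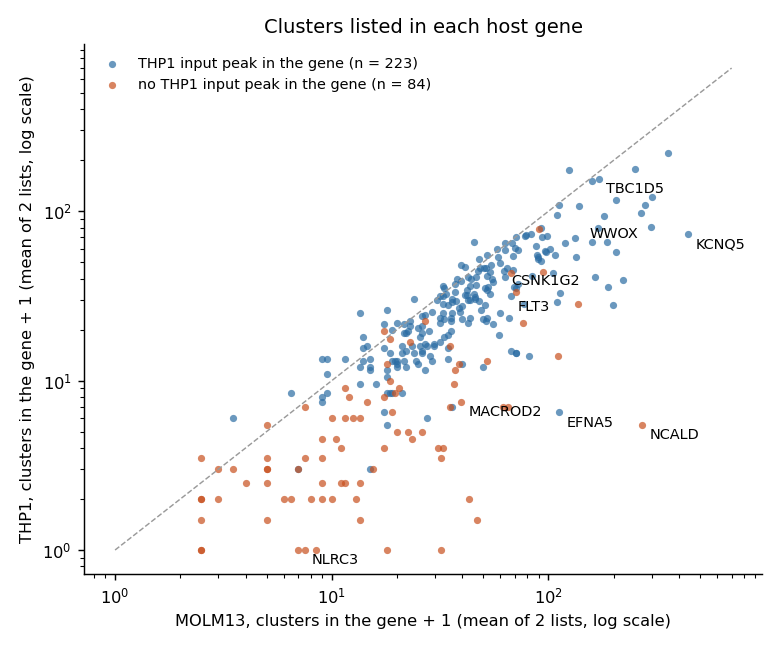
Clusters listed per host gene, plus 1, in MOLM13 (x axis) and THP1 (y axis), as the mean of 2 lists on log scales, with a dashed line of equal values and orange points for the 84 genes without a THP1 input peak. Of the 307 genes, 206 had more clusters in both MOLM13 lists; NCALD and MACROD2, which had no THP1 input peak, lie far below the line.

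Functional lists of genes gave mostly small counts, set here beside the share of all 8627 distal intron peaks. Receptor and kinase signalling genes held 9 sites (1.92%, against 1.56%) in FLT3, FYN, GAB2, JAK2, PRKCB and SOS1. FLT3 is the receptor of FLT3 ligand, and its 3 sites were among 16 distal intron peaks, 8 of which were in all 4 tables. One FLT3 site (chr13:28030808-28030834, minus strand) was enriched over IgG in both replicates, with 4.00 and 3.25, and had a THP1 cluster in replicate 1 only, at −0.07. At the FLT3 site with the highest fold over input (4.81 and 4.48) MOLM13 had 2.83 and 1.54 over IgG, against 1.38 and 0.96 for THP1. The kinase genes FYN (2.28 and 2.72) and JAK2 (3.45 and 2.45) missed the control in both, since JAK2 had a −log10 p of 2.87 in replicate 1.

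The fixed list of cytokine, adhesion and myeloid surface genes held 5 sites (1.07%, against 0.255%), all in ITGAL; it does not hold every adhesion gene, and ICAM2, with 3 sites, is not on it. Haematopoietic transcription factors held 4 sites (0.855%, against 0.800%). The lymphoid factor gene IKZF2 had 5.54 and 4.91 over input and was enriched over IgG in both replicates, with 3.56 and 3.55, without a THP1 cluster at the site. MEIS1, a cofactor of HOX proteins, had 2.45 and 2.83 over IgG, and TCF12, an E protein gene, 2.61 and 1.24.

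The elongation complex genes MLLT3 (2.09 and 2.61) and MLLT1 (2.79 and 2.89) were below the IgG threshold in both MOLM13 replicates. Cell cycle and genome maintenance genes held 7 sites (1.50%, against 1.68%), with values over IgG of 3.51 and 1.21 for the kinase gene CDK12, 2.28 and 1.21 for FANCA and 3.45 and 3.21 for the clamp loader gene RFC3, whose −log10 p of 2.87 and 2.46 missed the threshold. At the CDK12 site THP1 replicate 2 reached 3.59 with a −log10 p of 3.32 and replicate 1 had 1.00.

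Vesicle traffic and autophagy genes held 4 sites (0.855%, against 1.88%) in ATG7, TBC1D5 and TRAPPC9, the ubiquitin system 2 (0.427%, against 2.26%) in UBR2 and RNF130, and RNA-binding and splicing factors 1 (0.214%, against 1.51%) in PUM2. TRAPPC9, a subunit gene of a vesicle tethering complex, had 4.16 and 2.99 over IgG. The ligase gene UBR2 had 3.12 and 3.28, with a −log10 p below 3 in replicate 2. Genes of the TIS11 family and reported targets of the family held none, where 8 of the 8627 distal intron peaks lay in such genes. With counts this small, no list is called different from the rest.

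The chromosomes contributed unevenly. Chromosome 19 held 48 sites in 30 genes (10.3%, against 6.22% of all 8627 distal intron peaks), chromosome 6 held 44 in 28 genes (9.40%, against 5.58%) and chromosome 8 held 37 in 20 genes (7.91%, against 5.62%). Some of these sites shared 1 gene, with 12 in CSNK1G2 (chromosome 19), 8 in KCNQ5 (chromosome 6) and 9 in NCALD (chromosome 8). Chromosome 13, which carries FLT3, held 25 sites in 15 genes (5.34%, against 2.81%). On chromosome 1 there were 16 sites (3.42%, against 8.76%). Among the 2508 distal intron sites of THP1 only, chromosome 19 held 3.07%, chromosome 6 held 3.31%, chromosome 8 held 3.19% and chromosome 13 held 0.718%. Chromosome 1 held 14.0% of them. These shares were not tested, and differences in copy number between the lines were not measured.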

How the data were processed

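The deposited tables hold comparisons made by the authors, 1 immunoprecipitate at a time. Tools listed in the submitters' processing notes are STAR 2.5.0c, Picard 2.6.0, cutadapt 1.14 and edgeR, and builds listed there are hg38, hg19 and GRCh37, with no roles. The sources used here do not give the peak caller, the test or the depth. In the 4 deposited input tables and 4 deposited IgG lists, the authors give a −log10 p (capped at 400) and a log2 fold per cluster. Coordinates are printed 1-based on hg38. Input peaks were tied to IgG values by identical coordinates, found for 14403 of 14432, 14396 of 14425, 19306 of 19325 and 18871 of 18901 peaks (MOLM13 replicates 1 and 2, then THP1), which assigned the THP1 lists to replicates.

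Overlaps were computed in Python 3.11.15 with pandas 2.3.3, after a check on simulated intervals. The replicate 2 peak of a site was the overlapping one with the highest fold over input. RefSeq tables of GRCh38.p14 gave gene coordinates. Named genes were the leading 10 over input, the 8 with most regions, the 8 highest over IgG in each line, the 5 lowest over IgG and up to 3 per list. Members, tests and the 10 lists were chosen with earlier results of these data known, and the counts of 2 lists are not reported here. No genome sequence was used here, so the letters of the sites are not shown and the planned AU-rich motif count was not made.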

Additional observations from a re-analysis of the deposited data

Results flagged for a closer look

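At 6 sites in 4 genes the log2 fold over IgG was above 0 in both MOLM13 replicates and below 0 in both THP1 replicates. The difference was not tested, and the sites had been chosen for passing over input in MOLM13 and not in THP1. The EFNA5 site at chr5:107556673-107556759 had 3.75 and 3.98 in MOLM13, against −2.32 and −0.30 for THP1. In NCALD, a site at chr8:102030815-102030898 had 2.72 and 3.10, against −0.998 and −0.0392. The touching NCALD peaks at chr8:102036220-102036254 (4.00 and 4.89) and chr8:102036255-102036306 (3.77 and 4.49) shared the THP1 values −1.74 and −0.89. CSMD3, a long gene named here because of these values, had 2.95 and 2.26, against −0.32 and −0.30. A CSNK1G2 site at chr19:1974060-1974120 had 3.02 and 1.10, against −0.413 and −0.0392. The value −0.0392 is the most common one in the THP1 replicate 2 list, held by 18.4% of its clusters. The share of all clusters with opposite signs in the lines is not given here.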

How the results depend on the processing

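The number of sites stayed within 1.5 times of 468 with at least 50% of the peak shared (534), overlap on either strand (468), no THP1 peak within 100 bases (401), merged regions (436) and rows of replicate 2 (489). It moved to 145 when both MOLM13 folds had to reach 4 and to 217 when both −log10 p had to reach 5. With 1 library left out, it ran from 658 without THP1 replicate 2 to 1126 without MOLM13 replicate 2, with 723 without THP1 replicate 1 and 823 without MOLM13 replicate 1. Sites enriched over IgG in both MOLM13 replicates numbered 40, and 76 or 7 with an IgG threshold of 2 or 4. They ran from 63 to 129 with replicate 2 or replicate 1 alone. With 1 site per gene there were 23 of 314 (7.32%, against 8.62% of all 464). Sites enriched in both THP1 replicates numbered 0, and 1 with a threshold of 2, and 2 to 4 with a single THP1 replicate. Sites with both MOLM13 folds above both THP1 folds numbered 207 to 251 with a library left out. With 1 site per gene they numbered 116 of 219 (53.0%, against 58.5% of all 306). That count fell partly because fewer sites were counted, and the share fell too. Of 46 alternatives, 32 stayed within 1.5 times of the main count. The comparison of folds over IgG between lines and the count of clusters per gene, with all their alternatives (centring on list medians included), were added after the data were seen, as were those that take 1 site per gene, those that take the lowest THP1 cluster and, for genes with a THP1 peak, those that leave out a library. The AU-rich motif alternative was not run. No paired analysis was possible because the deposited values are comparisons within 1 replicate number and no test over libraries was made.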
